A study of Mus musculus with 6 samples.

Results

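The 44 genes described here encode the machinery of autophagy and the mTOR kinase pathway that controls it. They were taken by symbol from a list of named genes, and all 44 were found among the 24346 gene symbols of each deposited table. RNA was measured in the hippocampus of 12-month-old C57BL/6 mice by strand-specific RNA sequencing of total RNA. There were 3 libraries from TonEBP+/- mice, which carry 1 disrupted allele of Nfat5, and 3 libraries from wild-type (TonEBP+/+) littermates. They are named HET 1 to HET 3 and WT 1 to WT 3 below, as labelled. Nfat5 encodes TonEBP, a transcription factor of the NFAT family. The sources used here do not state the disrupted part of the gene, and no treatment was given in the labels. Levels are in FPKM, fragments per kilobase of transcript with the depth of the library divided out, which is how the deposited log2 values were read. The unit is scaled for length, and levels are compared between genes on that basis, although the transcript lengths used are not known from these sources.

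Autophagy encloses cell material in a double membrane, the autophagosome, and delivers it to the lysosome. The ULK1 kinase complex starts the process, a lipid kinase complex marks the membrane, and ubiquitin-like conjugation systems attach proteins of the ATG8 family to it, where cargo receptors bind them. The mTOR complex 1 holds the ULK1 complex and the transcription factor TFEB inactive when nutrients are plentiful, and the TSC complex restrains mTOR complex 1 through the small GTPase RHEB. In neurons basal autophagy clears protein aggregates and worn organelles, and mTOR signalling controls the protein synthesis that long-lasting synaptic change needs.

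None of the 44 genes passed the test of a difference between the genotypes. Gabarapl1, a member of the ATG8 family, had the highest level, with 296 ± 2.66 FPKM in TonEBP+/- and 297 ± 12.2 FPKM in wild-type libraries (SD, n = 3 each). Tfeb had the lowest mean level, with 2.16 ± 0.181 FPKM in TonEBP+/- and 2.34 ± 0.2902 FPKM in wild-type libraries (SD, n = 3 each), although Wipi1 was below it in HET 3 and Atg4a in WT 3. Log2 differences between TonEBP+/- and wild type lay between -0.16 (Atg10) and 0.10 (Tsc1), with 28 genes lower and 16 higher, where 50.0% of all genes tested were higher. With limma and Benjamini-Hochberg adjustment over the 13122 genes tested, 0 of 44 passed an adjusted p of 0.05, where the share of all genes was 0.0%. At an unadjusted p under 0.05 there were also 0 of 44, against 484 of 13122 genes, or 3.69%. Because adjusted p was 1.00 in limma for each of the 44 genes, it is not repeated at single genes.

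All 44 genes passed the filter on low values (at least 1 FPKM in 3 libraries), and all 44 were at 1 FPKM or more in all 6 libraries. The median log2 difference was -0.01 over the 44 genes and -0.00 over all genes tested. The median of its absolute value was 0.0339 over the 44 genes, 0.0664 over all genes tested, and 0.0630 over the 11438 tested genes that were at least as high as Tfeb. A difference of 0.2 or more in either direction was reached by 0 of 44 genes, by 9.98% of all genes and by 937 of the 11438 genes at least as high as Tfeb. The 95% interval lay within -0.5 to 0.5 for 43 of the 44 genes, with 88.3% of all genes and 91.5% of those 11438 genes inside these bounds. Wipi1 was the exception, with an interval of -0.53 to 0.28. The genotypes did not overlap in 3 of the 44 genes (Pik3c3 and Atg3 higher, Atg10 lower in TonEBP+/-), a share of 6.82% beside 8.52% of all genes tested (4.13% higher and 4.39% lower).

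**Figure D1:**
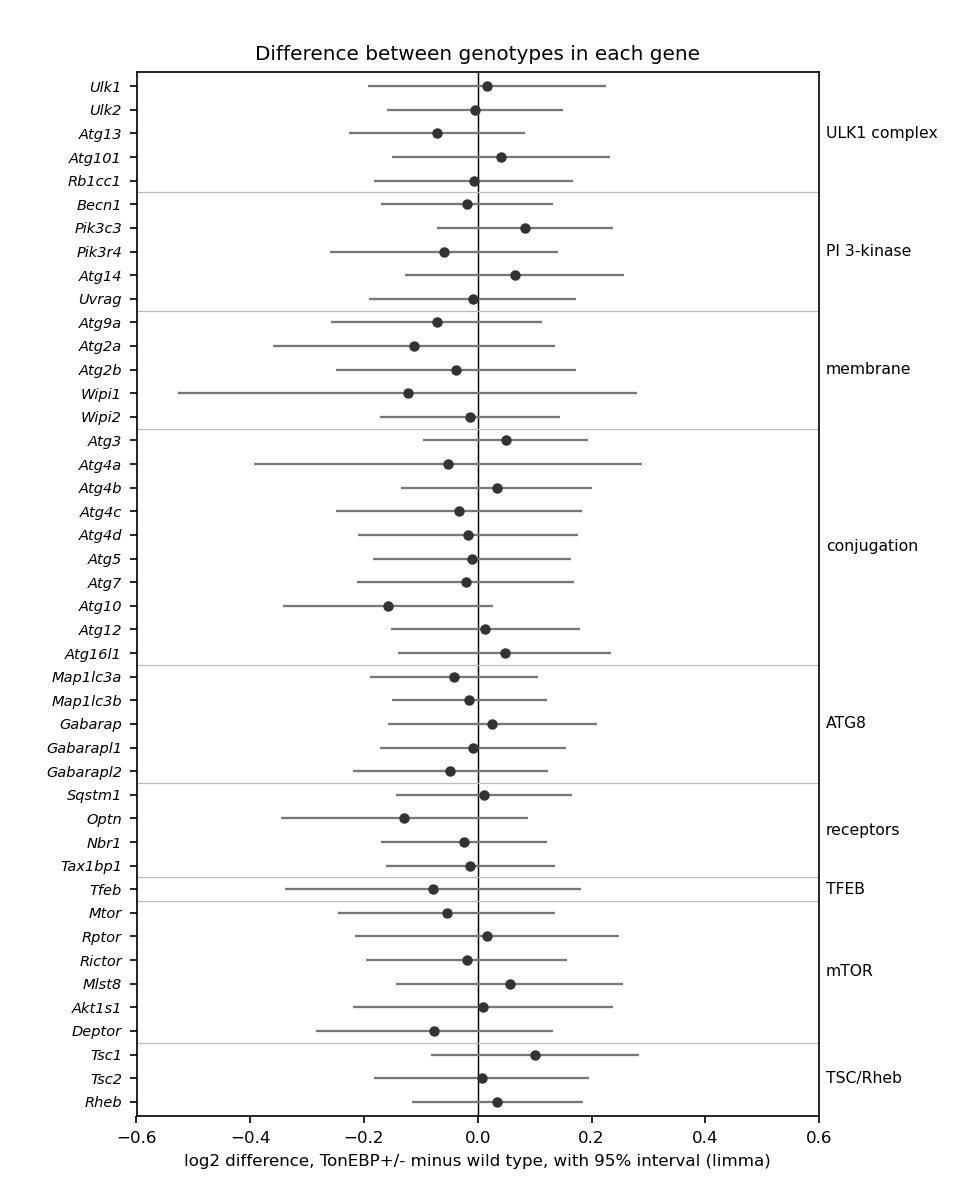
Log2 difference of each gene, TonEBP+/- minus wild type, as a point with its 95% interval from limma as a line (3 libraries each), grouped by role from top to bottom. The intervals of all 44 genes include 0, and the points lie between -0.16 (Atg10) and 0.10 (Tsc1).

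Promoter windows are shown for the genes that hold the motif of TonEBP and for a pair of genes whose values in the genotypes did not overlap. RefSeq windows of 300 bases on GRCm38.p6, from 250 bases before to 50 after a start site, were matched by symbol for 37 of the 44 genes (43 windows). TGGAAA, the core of the DNA element that TonEBP binds, was searched on both strands and was found in 4 of the 43 windows (9.30%), those of Atg13, Atg2b, Gabarapl1 and Mlst8, beside 21.4% of all 32851 windows. CACGTG, the E-box at the core of the element that TFEB binds, was found on both strands, being a palindrome, in 5 windows (11.6%), those of Atg14, Atg3, Atg5, Atg7 and Rheb, beside 7.15% of all windows. No site of one motif overlapped a site of the other. The windows of Atg13, Atg2b and Mlst8 are printed for the TGGAAA motif, that of Atg3 for its pair of E-boxes and that of Atg10 because it had the smallest p, although it held neither motif. They run 5′ to 3′ on the strand of the gene over the 250 bases before the start, and capitals mark an E-box, a TGGAAA motif or the reverse complement of that motif.
Atg13, chr2:91710593-91710842, minus strand: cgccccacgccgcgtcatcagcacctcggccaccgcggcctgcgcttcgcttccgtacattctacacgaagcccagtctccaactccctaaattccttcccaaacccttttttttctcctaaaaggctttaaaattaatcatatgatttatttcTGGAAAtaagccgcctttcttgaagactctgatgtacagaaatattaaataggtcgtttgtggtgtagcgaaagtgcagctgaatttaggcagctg
Atg2b, chr12:105685242-105685491, minus strand: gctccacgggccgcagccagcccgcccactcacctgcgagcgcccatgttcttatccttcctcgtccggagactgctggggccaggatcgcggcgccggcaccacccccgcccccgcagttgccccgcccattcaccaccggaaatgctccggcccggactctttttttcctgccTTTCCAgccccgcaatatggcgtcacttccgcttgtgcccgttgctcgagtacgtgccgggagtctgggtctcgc
Mlst8, chr17:24479079-24479328, minus strand: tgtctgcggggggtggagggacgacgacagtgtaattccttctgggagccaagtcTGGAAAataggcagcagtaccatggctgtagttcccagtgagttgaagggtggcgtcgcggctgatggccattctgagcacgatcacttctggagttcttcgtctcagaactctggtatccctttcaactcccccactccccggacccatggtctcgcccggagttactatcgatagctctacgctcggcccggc
Atg3, chr16:45158579-45158828, plus strand: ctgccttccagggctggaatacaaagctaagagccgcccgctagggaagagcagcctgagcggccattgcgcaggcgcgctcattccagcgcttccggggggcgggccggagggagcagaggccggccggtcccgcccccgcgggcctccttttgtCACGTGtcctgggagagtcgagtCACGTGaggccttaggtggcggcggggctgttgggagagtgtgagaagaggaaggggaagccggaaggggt
Atg10, chr13:91223988-91224237, minus strand: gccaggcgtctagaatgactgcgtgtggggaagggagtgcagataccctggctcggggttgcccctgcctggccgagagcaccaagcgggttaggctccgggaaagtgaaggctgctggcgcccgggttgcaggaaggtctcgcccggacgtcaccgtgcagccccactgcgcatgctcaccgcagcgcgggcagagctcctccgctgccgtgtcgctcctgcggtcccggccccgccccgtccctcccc
In Gabarapl1 the motif lay just after the start, within the first 30 bases at chr6:129533192-129533221 on the plus strand: gtttttgtgTTTCCAgctcttgggaaaagc. Motif matches are a description of the letters in these windows, and no binding was measured.

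The ULK1 kinase complex comprises the kinases ULK1 and ULK2, the adaptors ATG13 and ATG101, and the scaffold FIP200 encoded by Rb1cc1. Rb1cc1 had the highest level of the group, with 30.9, 31.8 and 35.01 FPKM in HET 1 to HET 3, against 30.6, 32.5 and 35.1 FPKM in WT 1 to WT 3. In both genotypes the third library was the highest, and the ranges overlapped, with a log2 difference of -0.01, SE 0.0785. Ulk2 was at 25.4 to 26.8 FPKM in HET and 24.7 to 27.5 FPKM in WT libraries, and Ulk1 at 6.61 to 8.06 FPKM in HET and 6.97 to 7.73 FPKM in WT libraries, so that Ulk2 was 3.33 to 3.95 times Ulk1 in HET libraries and 3.55 to 3.65 times in WT libraries. Atg13, one of the genes with a TGGAAA motif, had 16.6, 17.5 and 16.7 FPKM in HET 1 to HET 3, against 18.2, 18.2 and 17.2 FPKM in WT 1 to WT 3. HET 1 and HET 3 lay below the wild-type range and HET 2 inside it (log2 difference -0.07, SE 0.0689, exact permutation p = 0.2, two-sided). Atg101 was measured at 29.7, 25.004 and 26.8 FPKM in HET 1 to HET 3, against 28.7, 24.9 and 25.4 FPKM in WT 1 to WT 3, with overlapping ranges (log2 difference 0.04, SE 0.0857). Of the 5 genes, 2 were higher and 3 lower, with a median log2 difference of -0.00, and 4 were higher under quantile normalization.

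The class III phosphatidylinositol 3-kinase complex makes the lipid mark on the forming membrane. Its catalytic subunit is encoded by Pik3c3, its regulatory subunit by Pik3r4, and beclin 1 by Becn1, while ATG14 and UVRAG are alternative partners that define separate forms of the complex. Pik3c3 (chromosome 18, 30272747 to 30348126, GRCm38) had 14.998, 15.6 and 15.4 FPKM in HET 1 to HET 3, against 14.8, 14.5 and 13.95 FPKM in WT 1 to WT 3. The lowest HET library lay just above the highest WT library, 0.165 FPKM apart (log2 difference 0.08, SE 0.0692, exact permutation p = 0.1, two-sided, the smallest that 3 against 3 allow). Atg14 was at 5.99, 5.91 and 5.38 FPKM in HET 1 to HET 3, against 5.43, 5.402 and 5.55 FPKM in WT 1 to WT 3. HET 1 and HET 2 were above all WT libraries and HET 3 was below them (log2 difference 0.06, SE 0.0864). Becn1 was the most abundant subunit, with 47.6 ± 2.72 FPKM in TonEBP+/- and 48.2 ± 1.21 FPKM in wild-type libraries (SD, n = 3 each) and a log2 difference of -0.02, SE 0.0675. In the annotation 43.9% of the exon bases of Becn1 are also exonic in Cntd1 on the other strand, and Cntd1 was at 0.349 FPKM. Pik3r4 was at 6.29 to 6.55 FPKM in HET and 6.39 to 7.48 FPKM in WT libraries, where WT 3 alone stood above the rest. Uvrag was at 11.2 to 12.6 FPKM in HET and 11.3 to 12.7 FPKM in WT libraries and was 1.89 to 2.35 times Atg14 in HET libraries and 2.07 to 2.35 times in WT libraries. The group had 2 genes higher and 3 lower and a median log2 difference of -0.01.

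Membrane supply to the autophagosome involves ATG9A, a lipid scramblase carried in vesicles, the lipid transfer proteins ATG2A and ATG2B, and WIPI1 and WIPI2, which read the lipid mark. In this group 5 of 5 genes had a negative log2 difference, under quantile normalization, median scaling and a pseudocount of 0.1 as well, and 0 of the 5 passed. The median of the 5 was -0.07. Atg9a had 14.9, 15.3 and 14.5 FPKM in HET 1 to HET 3, against 15.5, 14.4 and 17.4 FPKM in WT 1 to WT 3. WT 1 and WT 3 lay above the HET range and WT 2 just below it (log2 difference -0.07, SE 0.0829). In the annotation 31.8% of the exon bases of Atg9a are also exonic in Gm29253 on the same strand, with a stretch of 1073 bases that is 99.9% identical, so the values of Atg9a are uncertain. Atg2a was at 3.21, 3.27 and 2.57 FPKM in HET 1 to HET 3, against 3.11, 3.38 and 3.51 FPKM in WT 1 to WT 3, where HET 3 was the lowest and HET 1 and HET 2 lay within the wild-type range (log2 difference -0.11, SE 0.111). Wipi1, at 3.11, 3.66 and 2.05 FPKM in HET 1 to HET 3, against 4.16, 2.99 and 2.68 FPKM in WT 1 to WT 3, had the widest spread of the 44 genes on the log2 scale, with HET 3 lowest and WT 1 highest (log2 difference -0.12, SE 0.1796). Wipi2 had 26.4, 27.9 and 29.7 FPKM in HET 1 to HET 3, against 29.1, 27.4 and 28.2 FPKM in WT 1 to WT 3, with overlapping ranges (log2 difference -0.01, SE 0.0707). It was between 7.61 and 14.5 times Wipi1 in HET libraries and between 7.001 and 10.6 times in WT libraries. Atg2b, a gene with a TGGAAA motif, was at 6.47 to 7.83 FPKM in HET and 6.82 to 7.31 FPKM in WT libraries (log2 difference -0.04, SE 0.0942). Over the 14 alternatives up to 2 of the 5 genes were positive, and the group median lay between -0.12 and -0.02.

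The conjugation machinery works as a pair of linked pathways. ATG7 is the activating enzyme, ATG10 passes ATG12 to ATG5, the ATG12-ATG5 conjugate binds ATG16L1, and with ATG3 this complex attaches ATG8 proteins to lipid. The ATG4 proteases trim ATG8 proteins beforehand and release them afterwards. Atg10 (chromosome 13, 90935356 to 91223968) had 7.07, 7.98 and 7.45 FPKM in HET 1 to HET 3, against 8.185, 8.82 and 8.43 FPKM in WT 1 to WT 3. All 3 HET libraries were below all 3 WT libraries, and the nearest pair was 0.202 FPKM apart. The log2 difference of -0.16 (SE 0.0824, 95% interval -0.34 to 0.03) was the most negative of the 44 genes and had the smallest p (limma unadjusted p = 0.0846, exact permutation p = 0.1, two-sided). It stayed negative in all 14 alternatives, between -0.20 and -0.12. Because the genotypes did not overlap, leaving out a library could not reverse this sign. The filters, the replicate block and the fit without the robust option leave the log2 difference unchanged. Atg3 (chromosome 16, 45158785 to 45188538), the gene with 2 E-boxes, had 28.02, 27.7 and 28.6 FPKM in HET 1 to HET 3, against 27.7, 27.6 and 26.1 FPKM in WT 1 to WT 3. HET 2 and WT 1 were 0.0112 FPKM apart, less than the SD within either genotype (0.434 in TonEBP+/- and 0.896 in wild type; log2 difference 0.05, SE 0.0647).

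The other 8 conjugation genes had overlapping genotypes and log2 differences between -0.05 (Atg4a) and 0.05 (Atg16l1). Atg7 was at 6.29 to 6.904 FPKM in HET and 6.28 to 6.92 FPKM in WT libraries and Atg5 at 13.7 to 15.6 FPKM in HET and 14.1 to 15.4 FPKM in WT libraries. Atg12 lay at 24.3 to 25.7 FPKM in HET and 23.8 to 27.1 FPKM in WT libraries, and Atg16l1 at 11.8 to 13.98 FPKM in HET and 12.1 to 13.2 FPKM in WT libraries. WT 2 was the highest library for Atg12 and HET 3 for Atg5 and Atg16l1. Among the ATG4 proteases Atg4c made up 44.2% to 48.8% of the summed FPKM of the 4 genes in HET libraries and 45.7% to 49.6% in WT libraries. Atg4b followed with 34.2% to 39.1% in HET libraries and 33.2% to 36.1% in WT libraries, and Atg4d with 10.7% to 11.3% in HET libraries and 10.5% to 11.6% in WT libraries. In the annotation 19.3% of the exon bases of Atg4d are exonic in Kri1 on the other strand, and Kri1 was at 6.07 FPKM, above the 5.37 FPKM of Atg4d (means of 6 libraries), so the values of Atg4d are uncertain where strand was not used in counting. Atg4a was the least abundant, with 2.45, 2.71 and 3.82 FPKM in HET 1 to HET 3, against 3.34, 3.54 and 2.498 FPKM in WT 1 to WT 3. HET 3 and WT 2 were its highest libraries, and the genotypes overlapped (log2 difference -0.05, SE 0.153). The annotation holds a copy, Atg4a-ps, that is 99.3% identical over 2115 bases, and since the handling of shared reads is not known from the sources used here, the values of Atg4a are uncertain. Of the 10 genes 4 were higher and 6 lower, with a median log2 difference of -0.01.

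**Figure D2:**
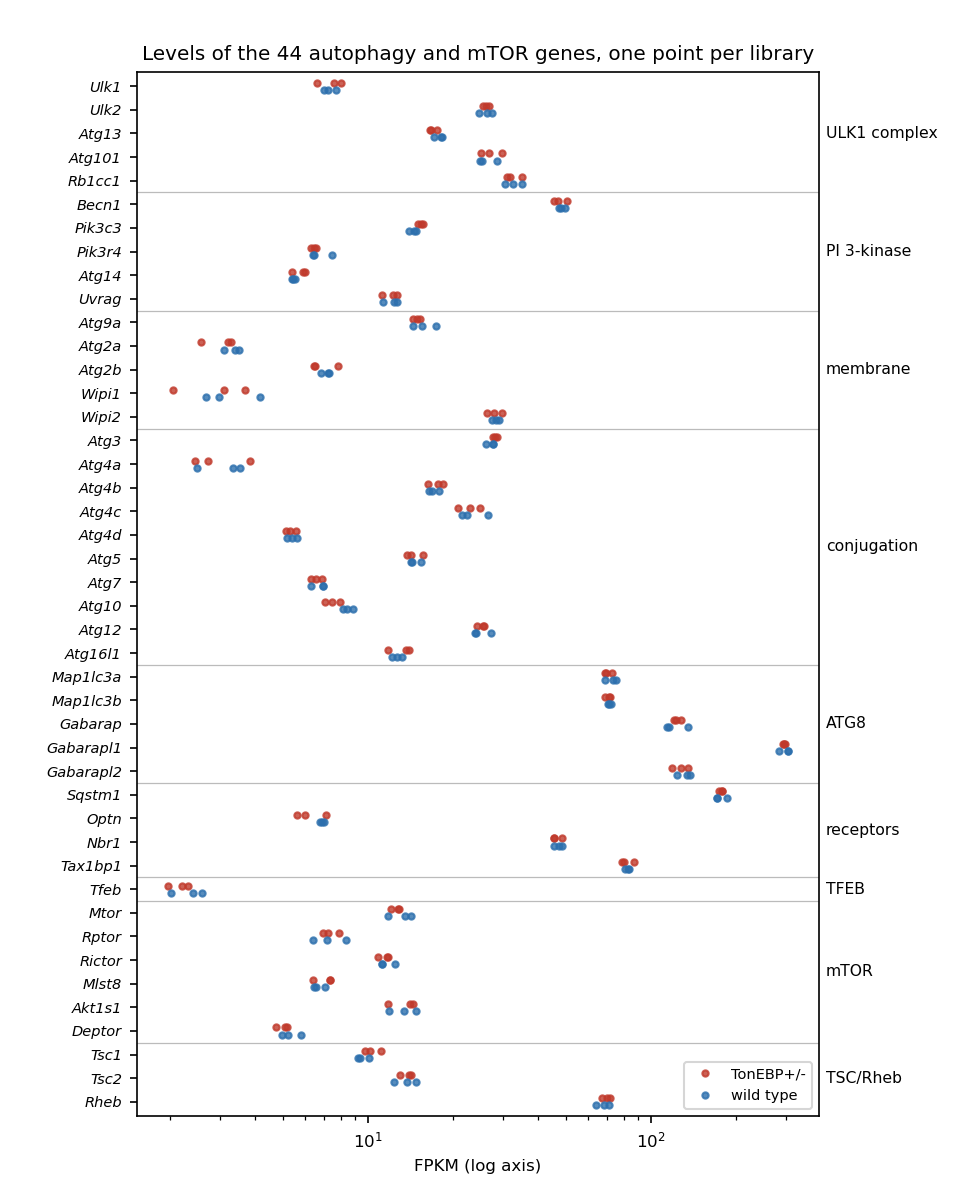
FPKM of each of the 44 genes on a log axis, 1 point per library, with TonEBP+/- in red above wild type in blue (3 libraries each). The genes span from 2.25 FPKM (Tfeb, mean of 6 libraries) to 297 FPKM (Gabarapl1, likewise), while the points of one gene lie close together and overlap between genotypes in 41 of 44 genes.

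ATG8 proteins are the small ubiquitin-like modifiers that coat the autophagosome, in an LC3 branch (Map1lc3a, Map1lc3b) and a GABARAP branch (Gabarap, Gabarapl1, Gabarapl2). By mean level the 5 genes were all within the 7 most abundant of the 44. Gabarapl1 (chromosome 6, 129533160 to 129542346) had 298, 295 and 293 FPKM in HET 1 to HET 3, against 283, 305 and 304 FPKM in WT 1 to WT 3. Its 3 HET libraries lay inside the wild-type range (log2 difference -0.01, SE 0.0731). Of the exon bases of Gabarapl1, 28.3% are exonic on the other strand in 1700101I11Rik, which was at 1.16 FPKM. Gabarapl2 was next, with 128, 119 and 135 FPKM in HET 1 to HET 3, against 123, 137 and 134 FPKM in WT 1 to WT 3. HET 2 was the lowest library and WT 2 the highest (log2 difference -0.05, SE 0.0765). Gabarapl2 has 3 processed pseudogenes that are 96.6% to 99.4% identical over 349 to 352 bases, which makes its values uncertain to the extent that reads were shared. Gabarap had 122, 120.3 and 128 FPKM in HET 1 to HET 3, against 114, 136 and 116 FPKM in WT 1 to WT 3, a narrow HET range inside a wide WT range (log2 difference 0.03, SE 0.0819).

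The LC3 genes were lower than the GABARAP genes in every library. Map1lc3a had 68.7, 72.6 and 69.5 FPKM in HET 1 to HET 3, against 73.2, 75.3 and 68.7 FPKM in WT 1 to WT 3, with HET 1 at the lower end beside WT 3 (log2 difference -0.04, SE 0.066004). Map1lc3b had 71.9, 71.2 and 68.7 FPKM in HET 1 to HET 3, against 70.5, 72.2 and 71.1 FPKM in WT 1 to WT 3, with overlapping ranges (log2 difference -0.01, SE 0.06103). The order of these genes was not fixed, as Map1lc3a exceeded Map1lc3b in 4 of 6 libraries. Gabarapl1 made up 43.0% ± 0.714 of the summed ATG8 FPKM in HET libraries and 42.9% ± 0.938 in WT libraries (SD, n = 3 each). Gabarapl2 made up 18.5% ± 0.959 of it in HET libraries and 18.9% ± 0.371 in WT libraries, and Gabarap 18.0% ± 0.394 in HET libraries and 17.5% ± 1.07 in WT libraries. Each LC3 gene contributed about as much as the other, Map1lc3a 10.2% ± 0.405 in HET and 10.4% ± 0.558 in WT libraries, and Map1lc3b 10.3% ± 0.327 in HET and 10.3% ± 0.327 in WT libraries. For each of the 5 genes the shares overlapped between genotypes. Of the 5, 1 was higher and 4 lower, with a median log2 difference of -0.01, and under quantile normalization 2 were higher.

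**Figure D3:**
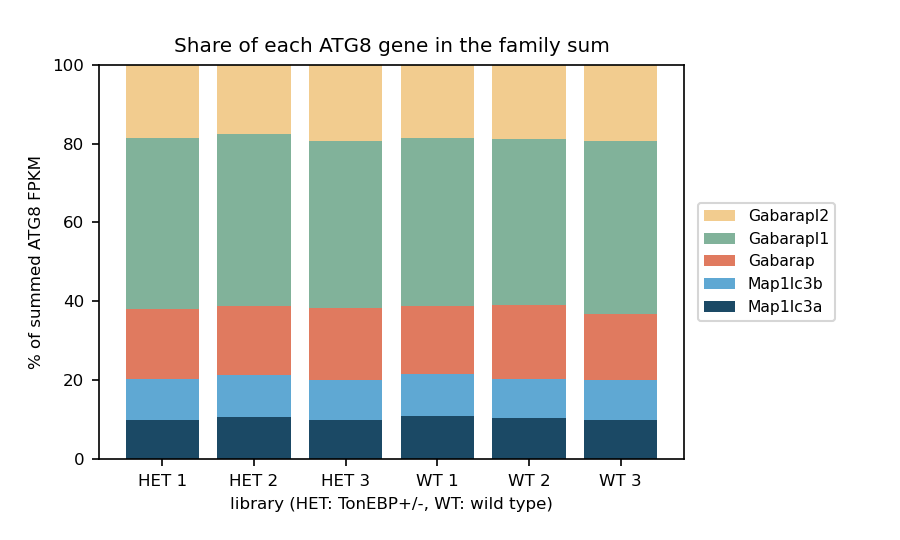
Stacked bars give the percent of the summed FPKM of the 5 ATG8 genes that each gene contributed, 1 bar per library, with TonEBP+/- (HET 1 to HET 3) left of wild type (WT 1 to WT 3). Gabarapl1 makes up 42.2% to 43.6% in TonEBP+/- and 42.0% to 43.9% in wild-type libraries.

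Cargo receptors bind ubiquitin-tagged material and ATG8 proteins at once. Sqstm1, which encodes p62 (chromosome 11, 50199366 to 50210827), was the second most abundant of the 44 genes, with 174, 178 and 178 FPKM in HET 1 to HET 3, against 170.3, 171 and 185 FPKM in WT 1 to WT 3. The HET libraries lay inside the wild-type range, in which WT 3 was the highest (log2 difference 0.01, SE 0.0694). Optn, the gene for optineurin, was the least abundant receptor, with 5.61, 7.09 and 5.97 FPKM in HET 1 to HET 3, against 6.77, 6.87 and 6.98 FPKM in WT 1 to WT 3. HET 1 and HET 3 were below the narrow wild-type range and HET 2 above it (log2 difference -0.13, SE 0.0969). Nbr1 was at 45.3, 45.3 and 48.6 FPKM in HET 1 to HET 3, against 45.5, 48.6 and 47.5 FPKM in WT 1 to WT 3 (log2 difference -0.02, SE 0.0652), and Tax1bp1 at 78.9 to 86.8 FPKM in HET and 80.6 to 83.9 FPKM in WT libraries. HET 3 was the highest HET library in both. Sqstm1 contributed 55.7% to 57.5% of the summed FPKM of the 4 receptor genes in HET libraries and 55.1% to 57.3% in WT libraries, and Optn 1.84% to 2.29% in HET libraries and 2.16% to 2.23% in WT libraries. Of the 4 genes 1 was higher and 3 lower, and with median scaling all 4 were lower (median log2 difference -0.02 on the deposited scale).

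Tfeb, the transcription factor gene for lysosomal and autophagy genes (chromosome 17, 47737030 to 47792419), had 2.31, 1.96 and 2.21 FPKM in HET 1 to HET 3, against 2.42, 2.02 and 2.59 FPKM in WT 1 to WT 3. HET 2 and WT 2 were the lowest libraries of their genotypes, and the ranges overlapped (log2 difference -0.08, SE 0.116). The log2 difference was negative in each of the 13 alternatives in which Tfeb was tested. Among these, the fit without a filter, the replicate block and the fit without the robust option could not change it.

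The mTOR kinase acts in complex 1 with RAPTOR (Rptor) and in complex 2 with RICTOR (Rictor), and MLST8 belongs to both. PRAS40 (Akt1s1) and DEPTOR (Deptor) inhibit the kinase. Mtor (chromosome 4, 148448611 to 148557683) had 12.02, 12.8 and 12.9 FPKM in HET 1 to HET 3, against 14.2, 11.8 and 13.5 FPKM in WT 1 to WT 3, with the HET libraries inside the wild-type range (log2 difference -0.05, SE 0.0853). Rptor was at 6.97 to 7.92 FPKM in HET and 6.398 to 8.36 FPKM in WT libraries and Rictor at 10.9 to 11.8 FPKM in HET and 11.2 to 12.5 FPKM in WT libraries. Rictor was 1.49 to 1.68 times Rptor in HET libraries and 1.34 to 1.75 times in WT libraries. Mlst8, with a TGGAAA motif, was measured at 7.32, 7.34 and 6.38 FPKM in HET 1 to HET 3, against 6.46, 7.07 and 6.56 FPKM in WT 1 to WT 3. HET 1 and HET 2 were above all WT libraries and HET 3 below them (log2 difference 0.06, SE 0.0891). In the annotation 22.5% of the exon bases of Mlst8 are exonic in Bricd5 on the other strand. Bricd5 was at 2.46 FPKM beside 6.85 FPKM for Mlst8 (means of 6 libraries), so the values of Mlst8 are uncertain where strand was not used in counting. For Atg2b the overlap is 2.85%, with Gskip, which at 15.2 FPKM was above the 7.03 FPKM of Atg2b (likewise). Exons on the other strand also cover 17.6% of the exon bases of Uvrag (Gm45187) and 17.3% of those of Sqstm1 (Mrnip), and the remaining overlaps covered up to 7.20% (Tsc2 with Pkd1). Akt1s1 had the highest mean of the group (13.4 FPKM over 6 libraries, although Mtor was higher in 3 of the 6), with 14.4, 14.1 and 11.8 FPKM in HET 1 to HET 3, against 13.4, 14.8 and 11.9 FPKM in WT 1 to WT 3. The third library was the lowest in each genotype, at nearly equal values (log2 difference 0.01, SE 0.102). Deptor was at 5.16, 5.104 and 4.73 FPKM in HET 1 to HET 3, against 5.79, 4.98 and 5.21 FPKM in WT 1 to WT 3, where WT 1 stood above the other 5 libraries (log2 difference -0.08, SE 0.0932). Of the 6 genes 3 were higher and 3 lower with a median log2 difference of -0.01, and 2 were higher with median scaling.

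Upstream of mTOR complex 1, TSC1 and TSC2 form the complex that switches RHEB off. Tsc1 had 9.73, 10.2 and 11.1 FPKM in HET 1 to HET 3, against 9.38, 9.24 and 10.1 FPKM in WT 1 to WT 3. HET 2 and HET 3 were above the wild-type range, HET 1 lay inside it, and the log2 difference of 0.10 (SE 0.0817, 95% interval -0.08 to 0.28) was the most positive of the 44 genes. Tsc2 was at 12.99 to 14.1 FPKM in HET and 12.4 to 14.8 FPKM in WT libraries (log2 difference 0.01, SE 0.0843), and Tsc2 over Tsc1 was 1.17 to 1.45 in HET and 1.34 to 1.58 in WT libraries. Rheb, with an E-box in its promoter window, was the most abundant of the 3, with 69.97, 67.1 and 71.5 FPKM in HET 1 to HET 3, against 64.2, 71.2 and 68.3 FPKM in WT 1 to WT 3. WT 1 was the lowest library, and the ranges overlapped (log2 difference 0.03, SE 0.0676). The 3 genes were higher in TonEBP+/- on the deposited scale (median log2 difference 0.03), and 2 of 3 were with median scaling.

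Mean levels spanned a 132-fold range over the 44 genes. Among the 43 pairs of neighbours in the order of mean FPKM, 10 had ranges over the 6 libraries that did not meet, and the other 33 overlapped. The clear steps lay mostly at the top, with Gabarapl1 above Sqstm1, Sqstm1 above Gabarapl2, Gabarap above Tax1bp1, and Tax1bp1 above Map1lc3a. Gabarapl2 and Gabarap overlapped (Gabarapl2 higher in 5 of 6 libraries), as did Map1lc3a, Map1lc3b and Rheb from one to the next. Rheb was above Becn1, Nbr1 above Rb1cc1 and Rb1cc1 above Wipi2 without overlap. Lower in the order the same held for Atg4c above Atg13, Tsc1 above Atg10 and Deptor above Atg2a. From Atg13 (17.4 FPKM, mean of 6 libraries) down to Tsc1 (9.96 FPKM), a run that includes Atg9a, Pik3c3, Atg5, Tsc2, Mtor and Rictor, each gene overlapped the next.

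**Figure D4:**
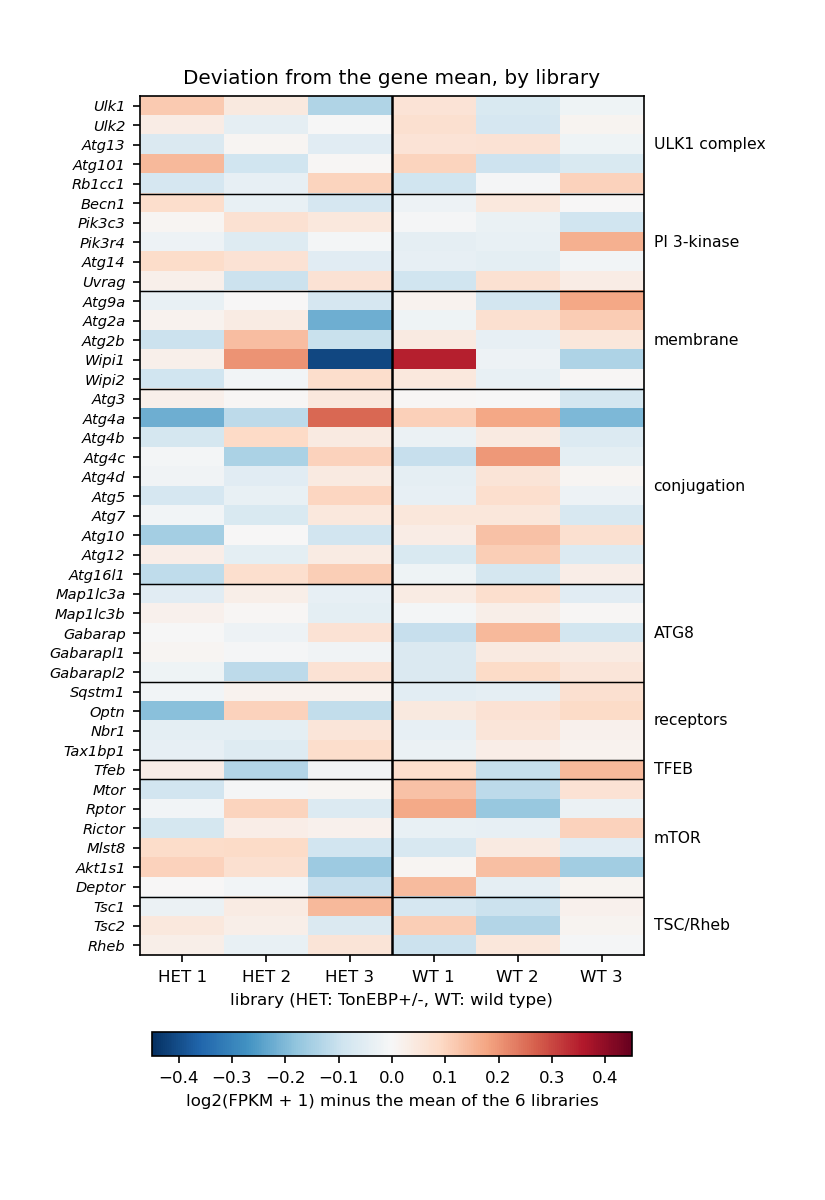
Colour gives log2(FPKM + 1) of each gene minus its mean over the 6 libraries, with TonEBP+/- (HET 1 to HET 3) left of the line and wild type (WT 1 to WT 3) right of it, and genes grouped by role. The strongest colours are single libraries of the low genes Wipi1 (HET 3 low, WT 1 high) and Atg4a, and no block of genes separates the left side from the right.

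Over the 44 genes the median deviation from the gene mean was -0.01, -0.00 and 0.01 on the log2 scale in HET 1 to HET 3 and -0.01, 0.03 and 0.01 in WT 1 to WT 3. WT 2 was the highest library for 13 of the 44 genes, and HET 1 the lowest for 11. By group, the ATG8 genes had their highest median deviation in WT 2 (0.08) and their lowest in WT 1 (-0.06). For the membrane supply genes the lowest was HET 3 (-0.10), and for the mTOR complex genes it was HET 3 as well (-0.08), with WT 1 the highest (0.07). The mean absolute deviation over the 44 genes was 0.0567 to 0.0796 in HET libraries and 0.0609 to 0.0723 in WT libraries, beside 0.1075 to 0.126 in HET libraries and 0.107 to 0.118 in WT libraries over all genes tested.

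Further genes of the pathway were taken from 5 lists, of which 125 genes of 128 listed were tested and 0 passed, in either direction. At an unadjusted p under 0.05 there were 0 of 125 in limma, beside 3.69% of all genes. In 5 of the 14 alternatives there were 2 to 4 of 125, and 0 passed the adjusted threshold in limma in any. These were 4 without HET 1 (Tbc1d7 and Galns among them), beside 5.19% of all genes. Without WT 3 there were 4 (Calcoco1, Fundc1 and Galns among them), beside 3.73%. There were 2 each without WT 1, beside 2.83%, without WT 2, beside 5.43%, and with the thalamus covariate, beside 3.20%. The genotypes did not overlap in 9 of the 125 (7 higher and 2 lower in TonEBP+/-), where the share of all genes was 8.52%. Among 19 tested genes of other autophagy machinery 12 were higher and 7 lower, and 14 were higher under quantile normalization. Bcl2, whose protein binds beclin 1, had 4.17, 4.665 and 4.58 FPKM in HET 1 to HET 3, against 4.01, 4.16 and 3.72 FPKM in WT 1 to WT 3, and Zfyve1, the gene of a marker of autophagosome precursor sites, had 13.4, 13.4 and 13.1 FPKM in HET 1 to HET 3, against 12.2, 12.3 and 12.6 FPKM in WT 1 to WT 3. The genotypes were apart in both, with log2 differences of 0.14, SE 0.09503 and 0.10, SE 0.0689.

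Among 15 further cargo and organelle receptors 3 were higher and 12 lower, with a median log2 difference of -0.04. The mitochondrial receptor gene Fundc1 had 35.2, 31.7 and 34.9 FPKM in HET 1 to HET 3, against 39.3, 40.3 and 34.6 FPKM in WT 1 to WT 3, with WT 3 inside the HET range (log2 difference -0.16, SE 0.07997). Calcoco1, a receptor gene for endoplasmic reticulum, had 17.2, 17.1 and 19.9 FPKM in HET 1 to HET 3, against 15.4, 14.9 and 17.9 FPKM in WT 1 to WT 3 and overlapped as well (log2 difference 0.16, SE 0.0925). Of 28 tested nutrient sensing genes 13 were higher and 15 lower. Tbc1d7, the third subunit of the TSC complex, had 5.7002, 5.07 and 5.19 FPKM in HET 1 to HET 3, against 6.14, 5.86 and 6.52 FPKM in WT 1 to WT 3, and its genotypes did not overlap (log2 difference -0.18, SE 0.0895). Rragb, a Rag GTPase gene, had 33.2, 36.6 and 34.3 FPKM in HET 1 to HET 3, against 38, 38.1 and 36.4 FPKM in WT 1 to WT 3, with HET 2 inside the wild-type range (log2 difference -0.11, SE 0.0669).

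Of 27 kinases and effectors around mTOR 12 were higher and 15 lower. Eif4ebp2, the gene of a translation repressor that mTOR complex 1 phosphorylates, had 10.3, 10.7 and 9.67 FPKM in HET 1 to HET 3, against 9.11, 9.33 and 9.28 FPKM in WT 1 to WT 3, with no overlap (log2 difference 0.13, SE 0.0762). Rps6kb2, the gene of an S6 kinase, had 1.04, 1.51 and 1.42 FPKM in HET 1 to HET 3, against 1.48, 1.51 and 3.06 FPKM in WT 1 to WT 3, where WT 3 stood far above the other 5 libraries (log2 difference -0.34, SE 0.196, and -0.11 without WT 3). Of 36 lysosome and TFEB-family genes 22 were higher and 14 lower, and with median scaling 15 of the 36 were higher. Hexa, the gene of a lysosomal hexosaminidase subunit, had 21.9, 23.7 and 22.5 FPKM in HET 1 to HET 3, against 19.2, 20.8 and 21.3 FPKM in WT 1 to WT 3, and all HET libraries were above all WT libraries (log2 difference 0.15, SE 0.071995). Galns, a lysosomal sulfatase gene, had 1.46, 1.87 and 2.12 FPKM in HET 1 to HET 3, against 1.12, 0.9898 and 1.77 FPKM in WT 1 to WT 3, with overlapping ranges (log2 difference 0.31, SE 0.158).

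The libraries differed in depth, in their values near 0 and in the levels of regional and cell type markers. HET 2 and WT 2 had 6917 and 6210 genes at 0, and 3 and 14 genes above 0 but below 0.001 FPKM. Each of the other libraries had 4262 genes at 0 and 2199 to 2609 genes above 0 but below 0.001 FPKM. The cause was not tested. From the step between low values, depth was estimated at 8920000 to 14100000 fragments in HET libraries and 9720000 to 12000000 in WT libraries, which makes a single fragment per kilobase equal to 0.0709 to 0.112 FPKM, far below the level of Tfeb. Nfat5 was at 8.25, 9.31 and 8.42 FPKM in HET 1 to HET 3, against 10.5, 8.39 and 9.72 FPKM in WT 1 to WT 3, with overlap (log2 difference -0.12, SE 0.0963), so that its level did not separate the genotypes and did not check the labels. Neuron markers (8 of 8 tested) and hippocampal markers (8 of 9 tested) were detected, as were those of the other cell types listed. Of 9 marker lists none had a gene at 0 in all libraries. The 15 thalamus and habenula markers summed to 167 to 313 FPKM in HET libraries, low in HET 2 (179.7) and HET 3 (167.0), and to 275 to 314 FPKM in WT libraries. Of the 15 markers 1 was higher, and the median log2 difference was -0.41. An unadjusted p under 0.05 in limma was reached by 3 of the 15, beside 3.69% of all genes, and none passed the adjusted threshold. Choroid plexus markers (7 genes) summed to 96.8 to 3445 FPKM in HET libraries and to 282 to 2884 in WT libraries. Oligodendrocyte markers (8 genes) summed to 3163 to 4425 FPKM in HET libraries, with HET 2 the lowest and 0 of 8 genes higher, and to 3921 to 4142 in WT libraries. When the mean level of the thalamus markers entered the fit, 0 of the 44 genes had an unadjusted p under 0.05 in limma, beside 3.20% of all genes. Since these markers were low in HET 2 and HET 3, this covariate partly followed genotype, which limits what the fit can show. Of the meningeal fibroblast markers 7 of 7 tested (8 listed) were higher, with a median log2 difference of 0.27, and the list summed to 57.4, 94.5 and 90.2 FPKM in HET 1 to HET 3, against 60.9, 74.0 and 54.6 FPKM in WT 1 to WT 3. None of these 7 had an unadjusted p under 0.05 in limma. The part of the choroid plexus, meningeal and oligodendrocyte content in the values was not tested, and in bulk tissue fewer cells of a type and less RNA per cell cannot be told apart.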

How the data were processed

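Total RNA from hippocampus was sequenced from directional NEBNext Ultra II libraries, per the labels' protocols. The submitters' processing notes name TopHat as aligner and mm10 as build. Neither the quantifier, the annotation nor the use of strand in counting is known from the sources used here. The authors deposited 1 table per library of log2 values. That these are log2(FPKM + 1) was read from the values, since low values fell into steps set by transcript length (83.3% to 87.1% within 0.15 of a whole step after subtracting 200 bases from the length), which also gave the depth estimates.

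The design text calls the wild-type mice littermates, but the labels number the samples in each genotype and tie none to a litter. The titles do not say whether each sample is a single mouse. P-values set the difference between genotypes against the spread between these samples. Genes reaching 1 FPKM in 3 libraries or more entered a limma fit (version 3.58.1, R 4.3.3; genotype only, trend and robust options, Benjamini-Hochberg adjustment over 13122 genes). Log2 differences, TonEBP+/- minus wild type, are on the log2(FPKM + 1) scale and understate changes of low genes. Exact permutation tests over the 20 splits were two-sided. Genes named by rule were the ATG8 genes, Tfeb, the smallest p values and the highest level in each group, genes whose genotypes did not overlap, and the 2 smallest p values in each further list. Atg2b, Wipi1, Atg4a, Mlst8 and Tsc2 are given with a log2 difference outside this rule, chosen after their values were seen, and the other members as ranges or counts. The genes and lists were chosen with earlier results of these data known. Gene positions and exon overlaps are from GENCODE M21 on GRCm38, and copies were searched in its transcripts (at least 95% identity over 200 bases). Python 3.11.15 with matplotlib 3.10.9 drew the figures.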

Additional observations from a re-analysis of the deposited data

How the results depend on the processing

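Over the 14 alternatives (2 scalings, 2 filters, a replicate block, a pseudocount of 0.1, no robust option, a thalamus covariate and each of 6 libraries left out), 0 of the 44 genes passed an adjusted p of 0.05 in limma, and 0 had an unadjusted p under 0.05 in any of them. Of all genes, 2.83% to 5.43% were under that unadjusted p in these fits. The number of the 44 genes with a positive difference was 16 on the deposited scale and ranged from 12 (median scaling) to 19. Tfeb, Atg2a, Atg4a and Wipi1 fell out of the test under the stricter filter, which left 40. The median log2 difference of the 44 genes was -0.0309 with the thalamus covariate, against -0.0134 without it, and the cause was not tested. The replicate block is balanced over the genotypes, so it leaves each log2 difference unchanged (median -0.0134, 16 of 44 genes positive) and alters only SE and p. With this block 0 of all genes passed the threshold. Deviations from the genotype means correlated at -0.208, -0.247 and -0.157 between same-numbered libraries, and at 0.0493 to 0.169 between the others. HET 2 and WT 2 nevertheless shared their pattern of values near 0. Whether same-numbered libraries were processed together was not tested. The labels name no pairs, and the fit on the deposited scale used none. Over all genes 0 to 8 passed with a library left out, 8 of them without HET 1 and 1 each without HET 3, WT 1 or WT 2, and none of these was among the 44.

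Of 30 members given with a log2 difference in the text (25 by rule and 5 outside it), 16 kept their sign in all alternatives in which they were tested, and the other 14 did not. Nfat5 and the 10 further pathway genes with a log2 difference kept theirs, but these 10 were chosen for small p in the same values. The filters, the replicate block and the fit without the robust option leave each log2 difference unchanged, so they could not change a sign. Where the genotypes did not overlap, leaving out a library could not change it either. Under quantile normalization Map1lc3b was at 5.0e-05 and Rb1cc1 at 0.00195. Under median scaling Akt1s1 was at -0.00475, Sqstm1 at -0.00215 and Tsc2 at -0.00670. With the thalamus covariate Becn1 was at 0.0559, Gabarapl1 at 0.00629, Map1lc3b at 0.0103 and Sqstm1 at -0.00459. With a library left out, the range was -0.0674 to 0.0926 for Akt1s1, -0.0222 to 0.102 for Atg101, -0.118 to 0.00282 for Atg2b, -0.195 to 0.044995 for Atg4a, -0.0633 to 0.0141 for Becn1, -0.0191 to 0.105 for Gabarap, -0.0427 to 0.00928 for Gabarapl1, -0.0276 to 0.00428 for Map1lc3b, -0.0591 to 0.0432 for Rb1cc1, -0.00477 to 0.0688 for Rheb, -0.00942 to 0.0498 for Sqstm1, -0.0579 to 0.063972 for Tsc2, -0.256 to 0.0512 for Wipi1 and -0.0566 to 0.0267 for Wipi2. Among members that kept their sign, Atg9a was at -0.00324 without WT 3 (-0.0721 with all libraries), Mtor at -0.00203 without WT 1 (-0.0549), Gabarapl2 at -0.00123 without HET 2 (-0.0482), Nbr1 at -0.00319 without WT 2 (-0.0238), Atg2a at -0.0296 without HET 3 (-0.112) and Optn at -0.0675 without HET 1 (-0.129) and -0.213 without HET 2. With 3 libraries per genotype, the median SE of a log2 difference was 0.0821 over the 44 genes and 0.0991 over all genes tested, which limits the size of difference that could be seen.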
